A study of Mus musculus with 8 samples.

Results

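The 10 genes examined were the AP-1 family genes Fos, Fosb, Fosl1, Fosl2, Jun, Junb, Jund and Atf3 and the immediate early genes Egr1 and Ier2, followed through the accessible chromatin around them. Their peaks were all those whose centre lay in the GRCm38 span of a gene or within 50 kb of it, which gave 195 of the 134407 peaks in the data. For 61 of these peaks the member was itself the nearest protein-coding gene, and the other 134 lay nearer to another gene and are named by that gene. The assay was ATAC-seq, where a transposase (Tn5) inserts sequencing adapters into open DNA, and the cells were wild-type E14 mouse embryonic stem cells grown on gelatin in serum and LIF. The 4 control libraries came from the control condition, for which the labels name no agent or vehicle, and the 4 paused libraries from cells given 200 nM INK128, an mTOR kinase inhibitor, for 24 h. Each library was made from 50000 live cells of this 1 line. The labels do not say whether replicates were separate cultures, so p-values measure only the spread between these samples.

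AP-1 is a dimeric transcription factor, made of a Jun protein paired with a Fos, Jun or ATF protein through leucine zippers. Many of its genes are immediate early genes, switched on within minutes of a growth factor or stress signal, without new protein synthesis. In this response MAP kinases activate the serum response factor Srf and its Elk partners, and Egr1, a zinc finger factor, and Ier2, a short-lived nuclear protein, are induced beside Fos and Jun.

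Promoter sequences from RefSeq (GRCm38.p6), from 250 bases before to 50 after the start site, were at hand for 7 of the 10 genes. They were searched on both strands for the AP-1 site TGANTCA, the cAMP response element TGACGTCA, the Egr site GCGNGGGCG, the serum response element (CArG box) and the AP-1 variant TGACATCA. The variant, known from the Jun promoter, was added to the other 4 after the sequences were seen, and no window held more than 1 match. Jun is shown because the peak at its start lies wholly in this window, from 168 bases before to 32 bases after the start, and because its promoter alone among the 7 holds the variant, 45 to 38 bases before the start and inside that peak. Fosb is shown as 1 of the 2 promoters with an Egr site, which lies 50 to 42 bases before its start. Capitals mark these matches, each sequence is written 5′ to 3′ on the strand of the gene, and both genes lie on the minus strand, Jun at chr4:95052173-95052472 and Fosb at chr7:19309996-19310295.
Jun: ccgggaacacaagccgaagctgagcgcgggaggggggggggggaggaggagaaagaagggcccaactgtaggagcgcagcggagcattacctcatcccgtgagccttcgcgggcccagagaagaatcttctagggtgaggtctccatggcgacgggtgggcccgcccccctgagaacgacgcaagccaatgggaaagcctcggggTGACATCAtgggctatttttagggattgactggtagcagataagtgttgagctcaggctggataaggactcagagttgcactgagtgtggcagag
Fosb: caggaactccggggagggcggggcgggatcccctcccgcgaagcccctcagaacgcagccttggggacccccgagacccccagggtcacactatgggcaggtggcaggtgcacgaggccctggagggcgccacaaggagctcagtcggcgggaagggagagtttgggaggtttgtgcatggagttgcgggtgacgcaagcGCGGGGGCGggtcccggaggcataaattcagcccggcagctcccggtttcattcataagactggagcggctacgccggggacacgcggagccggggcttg
The Fosl2 promoter held GCGGGGGCG from 79 to 71 bases before its start. No match to TGANTCA, TGACGTCA or the CArG box lay in any of the 7 windows, which says nothing of sequence outside them. Of all 21263 promoters of protein-coding genes, 6.99% held TGANTCA, 2.23% TGACGTCA, 7.52% GCGNGGGCG, 1.52% a CArG box and 3.66% TGACATCA. The promoters of Fos, Fosb, Fosl2, Jun, Junb and Atf3 had a GC content of 58.7% to 68.3% and 15 to 32 CpG, against medians of 56.3% and 13. The Jund window stood apart with 46.7% GC and 3 CpG. It shared 0 bases with the Jund peak nearest to the start, as did the windows of Fosb, Fosl2, Junb and Atf3 with theirs.

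The libraries held 4434037 to 21161767 reads in peaks, with 91 reads at the median peak of control replicate 1 and 18 to 29 in the other 7 libraries. A peak without reads allows up to 3 reads, which is a deposited value of 1.04 to 5.08 depending on the library, for counting error only. All 8 libraries were kept as separate samples, since replicates did not agree within sampling noise (chi-square per degree of freedom of at least 1.09, for control replicates 3 and 4). As a check of the cell type, all 6 stem cell genes examined (Pou5f1, Sox2, Nanog, Esrrb, Zfp42 and Tfcp2l1) had a peak within 2 kb of a gene end, with a mean value of 37.8 to 344 at the strongest. Peaks of 40.7 to 156 also lay at 4 of 5 fibroblast genes and of 87.1 to 144 at 3 of 4 endoderm genes, so that open gene ends did not separate these cell types.

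The first question was whether the start sites of the immediate early genes opened or closed in paused cells. All 10 genes had a peak within 2 kb of the start, or of a gene end, in both conditions. Of the genes with a promoter window, only Fos and Jun had this peak reach into it. None of the 10 peaks passed the test, where 11.8% of the start-site peaks of all protein-coding genes did. The test was limma-trend on log2(value + 1), with a Benjamini-Hochberg adjusted p under 0.05 over all tested peaks. For Fosl1, Egr1 and Ier2, which had no entry in the promoter table used here, the nearest gene end stood in for the start, and for Fosb and Jund the nearest peak lay between 1 and 2 kb away. Changes ran from -0.13 at Fosb to 0.33 at Atf3 on the log2 scale, with a median of 0.18, and 9 of the 10 were above 0. That median matched that of the start-site peaks of all protein-coding genes, 0.18. At an unadjusted p under 0.05 the 10 gave 4 (Fos, Jun, Jund and Atf3), where 33.1% of such peaks over all protein-coding genes had one, and in the authors' deposited table the Atf3 peak alone has an FDR under 0.05.

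Fos, the founding partner of Jun in AP-1, had its start-site peak on chromosome 12 (85473565 to 85473765), centred 225 bp before the start. Its values were 138, 147, 157 and 162 in the control and 168, 186, 196 and 182 in the paused libraries. All 4 paused values lay above all 4 control values, but the log2 change of 0.28 (SE 0.12) missed the threshold (limma-trend adjusted p = 0.102). After a loess correction of each library on peak strength, which removes changes shared by peaks of like strength, it was 0.07 (limma-trend adjusted p = 0.74).

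Jun, the central subunit of AP-1, had one of the strongest of these peaks, on chromosome 4 (95052190 to 95052390), the stretch printed above. The values were 253, 221, 290 and 279 in control and 316, 292, 337 and 305 in paused libraries, again without overlap. The log2 change was 0.27 (SE 0.11, limma-trend adjusted p = 0.0938), and 0.06 after loess correction. Fos and Jun were the 2 of 10 start-site peaks whose groups did not overlap with paused above control. That pattern was found at 1880 of the 12120 start-site peaks of all protein-coding genes and at 13.0% of all tested peaks.

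Atf3, a stress-induced ATF/CREB family protein that can pair with Jun, had a peak inside the gene, 746 bp after the start (chromosome 1, 191182487 to 191182687). Control values were 151, 140, 164 and 156, and paused values 174, 156, 231 and 214. Paused replicates 3 and 4 were the high ones and paused replicate 2 lay within the control range. The log2 change was 0.33 (SE 0.12, limma-trend adjusted p = 0.0679), and the same peak is listed with a log2 fold of 0.29 and an FDR of 0.0446 in the authors' deposited table. It was called without paused replicate 2 (limma-trend adjusted p = 0.0294), and under 3 more of 17 alternatives.

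The remaining Fos family genes differed less. At Fosl2, encoding Fra-2, the peak 625 bp before the start (chromosome 5, 32135747 to 32135947) had values of 174, 204, 147 and 160 in control and 204, 158, 205 and 204 in paused libraries, so that the groups overlapped. At Fosl1, encoding Fra-1, the peak 63 bp outside a gene end (chromosome 19, 5447535 to 5447735) had values of 153, 107, 149 and 132 and of 149, 151, 141 and 177. Their log2 changes were 0.17 (SE 0.12) and 0.20 (SE 0.13). Fosb was the member with a value below 0: its peak 1182 bp inside the gene (chromosome 7, 19308763 to 19308963) had values of 188, 176, 200 and 166 in control and 156, 158, 192 and 163 in paused libraries. Its log2 change was -0.13 (SE 0.12, limma-trend adjusted p = 0.505), and after loess correction -0.33 (limma-trend adjusted p = 0.0448), the 1 setting under which it was called.

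Among the Jun partners, Jund, the constitutively made member of the family, had the strongest peak of the 10 (chromosome 8, 70698653 to 70698853, 1014 bp after the start). It had values of 276, 365, 306 and 317 in control and 392, 364, 363 and 342 in paused libraries, and the overlap came from control replicate 2. Junb, which often opposes Jun, had a weaker peak inside its single 1840 bp span (chromosome 8, 84977932 to 84978132), with values of 74.3, 86.0, 83.0 and 85.2 and of 90.0, 93.1, 106 and 68.0. Paused replicate 4 was below all controls there and the other 3 above. The log2 changes were 0.21 (SE 0.10) for Jund and 0.10 (SE 0.14) for Junb.

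The zinc finger gene Egr1 had a strong peak 551 bp outside its lower-coordinate end (chromosome 18, 34860556 to 34860756). Values were 222, 262, 257 and 199.9 in control and 269, 235, 270.0 and 252 in paused libraries, with overlap and a log2 change of 0.13 (SE 0.11, limma-trend adjusted p = 0.466). Ier2 had the weakest, 991 bp outside its upper end (chromosome 8, 84663743 to 84663943), with values of 51.5, 53.8, 67.7 and 47.0 and of 58.8, 48.9, 62.1 and 57.4. Its log2 change was 0.05 (SE 0.16). Over all 8 libraries the order of these equally wide peaks was Jund (341), Jun (286), Egr1 (246), Fosl2 (182), Fosb (175), Atf3 (173), Fos (167), Fosl1 (145), Junb (85.6) and Ier2 (55.9). Neighbours in this order had overlapping ranges over the 8 libraries down to Fosl1, whereas every Junb value lay below every Fosl1 value and every Ier2 value below every Junb value.

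**Figure D1:**
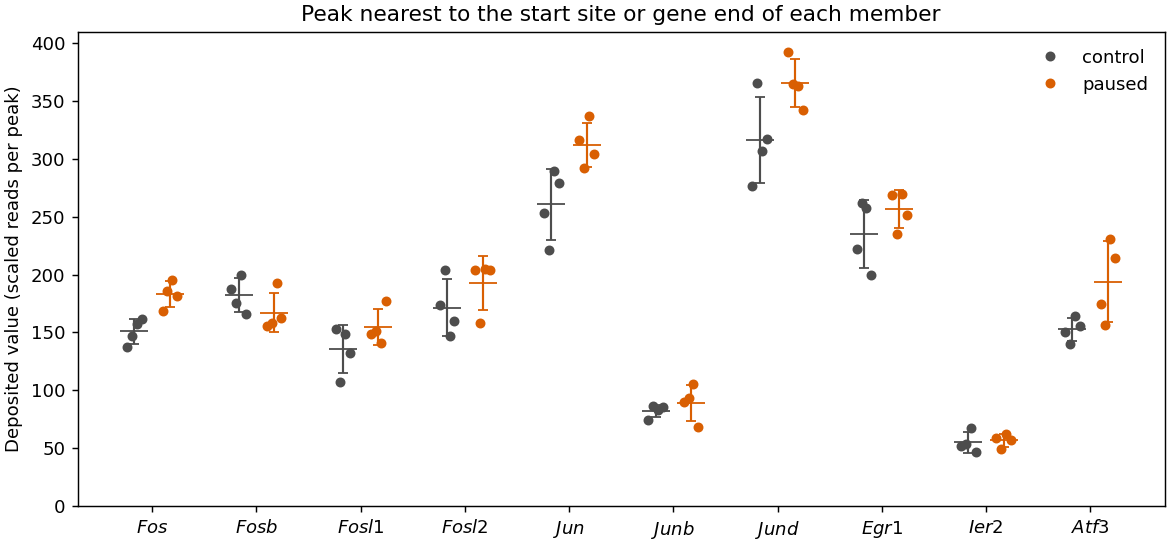
Deposited values (vertical axis, scaled reads per peak of 201 bp) of the peak nearest to the start site, or to a gene end for Fosl1, Egr1 and Ier2, of each of the 10 genes. Points are the 4 control and 4 paused libraries, the long ticks their means and the bars 1 SD. The groups lie close together and do not overlap at Fos and Jun.

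Over the whole windows, 185 of the 195 peaks had a mean value of at least 10 and were tested. Of these 10 were called higher and 11 lower in paused cells, 5.41% and 5.95%, where 11.0% of all tested peaks were called higher and 2.91% lower. The median log2 change of the 185 peaks was 0.01, against 0.10 over all tested peaks. Groups did not overlap at 17 of them with paused above and at 17 with paused below, against 13.0% and 4.36% of all tested peaks. The split depended on the scaling: limma-trend after TMM rescaling called 3 higher and 16 lower, where it called 5.80% and 4.27% of all peaks. After loess correction it was 1 higher and 15 lower, against 5.10% and 3.50% of all peaks. In a bulk sample, fewer cells with a site open and less opening per cell cannot be told apart. Leaving out 1 library gave 5 higher calls without paused replicate 4, 6 without control replicate 1 and 7 lower calls without control replicate 3. The shares of all tested peaks in those 3 fits were 7.05% higher, 8.34% higher and 1.82% lower, also below the shares with all 8 libraries.

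The authors' deposited table, in which 11.0% of all peaks have an FDR under 0.05, lists 9 higher and 10 lower among these 195 peaks. Over all 134407 peaks it lists 12355 as higher and 2416 as lower. Higher peaks thus outnumber lower ones over all peaks in that list, but not among the 195. Of the calls made here, 18 are also listed there in the same direction, which is no independent evidence since the values are shared.

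**Figure D2:**
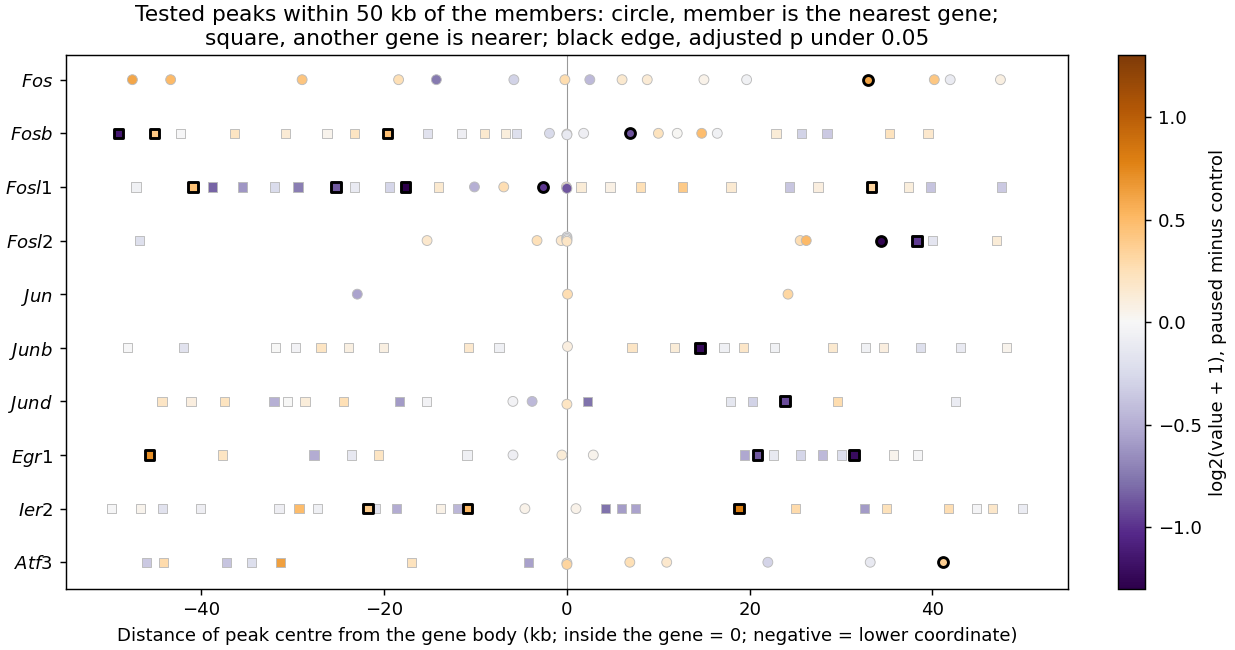
Each tested peak (185 in all) by its distance from the body of its member gene (horizontal axis, kb; peaks inside a gene are drawn at 0; negative values lie at lower coordinates). Colour gives the log2 change, circles are peaks whose nearest gene is the member, squares lie nearer to another gene, and the 21 black edges mark an adjusted p under 0.05, none of them inside a member gene.

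Calls went with peak strength, as they did over all peaks. Tested peaks were split into 10 equal classes (deciles) of mean value. All 11 lower calls fell on peaks in the weakest 5 deciles of mean value, and of the 10 higher calls 8 fell in the strongest 3 deciles. In the weakest 3 deciles 7 of 52 member peaks were lower and none higher, where 4.15% and 3.06% of all peaks were. In the strongest 3 deciles 8 of 83 were higher and none lower, where 19.3% and 1.08% of all peaks were. The median change of member peaks lay below that of all peaks in each of the 10 deciles. In the strongest decile it was 0.202 for the 38 member peaks and 0.204 for all peaks. In the 2nd strongest decile it was 0.07 for 25 member peaks and 0.19 for all peaks. In the 2nd weakest decile it was -0.38 for 23 member peaks and -0.08 for all peaks. Values near the floor are measured on few reads, 3 to 80 over the 8 libraries at the 6 peaks called lower in the 2nd and 3rd weakest deciles.

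**Figure D3:**
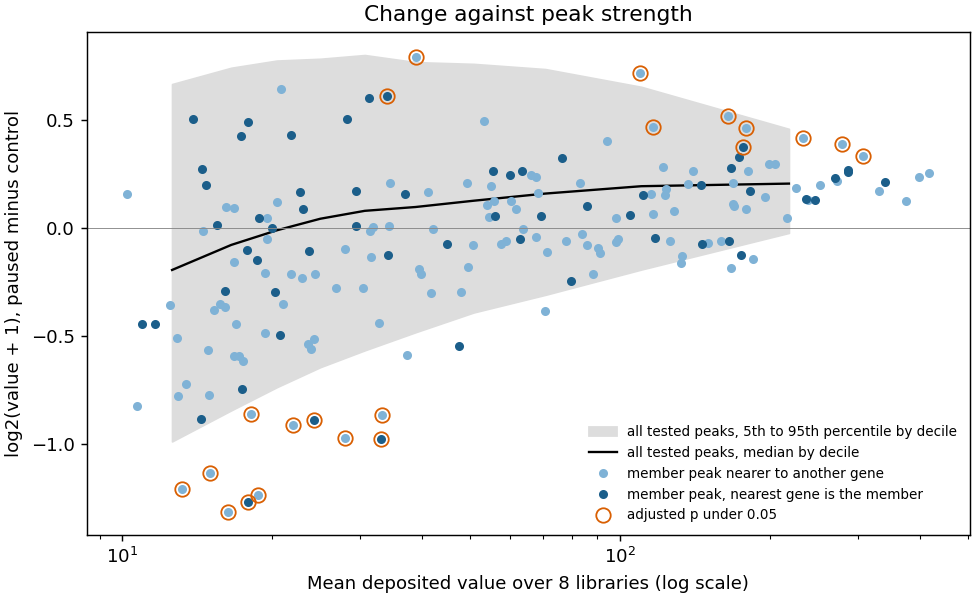
Log2 change in paused cells (vertical axis) against the mean deposited value over 8 libraries (horizontal axis, log scale) for the 185 tested member peaks, over the median and the 5th to 95th percentile of all tested peaks in deciles of strength. Circled peaks passed the test; the higher ones sit mostly at the right and the lower ones at the left.

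Only 5 of the 59 tested peaks whose nearest gene was a member were called, 2 higher and 3 lower, where 11.0% and 2.91% of all tested peaks were. After loess correction 0 of the 59 were higher and 5 lower, against 5.10% and 3.50% of all tested peaks. All 5 lay outside the gene, and each belonged to a different gene of the Fos family or to Atf3.

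At Fosl1 the called peak lay 2582 bp outside the gene, on the same side as the peak near its end (chromosome 19, 5445016 to 5445216). Control values were 47.0, 44.2, 61.0 and 26.5 and paused values 24.2, 22.1, 21.7 and 17.6, so that all paused libraries were below all controls. The log2 change was -0.98 (SE 0.23, limma-trend adjusted p = 0.00279), and it was called under all 16 alternatives that tested it, with adjusted p from 0.00011 to 0.0256. Another weak peak inside Fosl1 had values of 16.9, 19.1, 13.6 and 26.5 in control and 11.5, 11.0, 9.31 and 7.03 in paused libraries, and missed the threshold (log2 change -0.88, limma-trend adjusted p = 0.0554).

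At Fosl2 the called peak lay 34335 bp beyond the 3′ end (chromosome 5, 32192075 to 32192275). It went from 27.7, 26.3, 27.1 and 20.6 in control to 5.77, 14.2, 10.9 and 10.5 in paused libraries, without overlap. This was the largest fall among peaks nearest to a member, -1.27 (SE 0.29, limma-trend adjusted p = 0.00304), and was called under all 16 alternatives. It rests on 5 to 80 reads per library. A second peak, 38314 bp beyond that end and nearest to the phospholipase gene Plb1 (32196054 to 32196254), fell as well, by 0.97 on the log2 scale (SE 0.24, limma-trend adjusted p = 0.00469).

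At Fosb a peak 6942 bp before the start (chromosome 7, 19316887 to 19317087) fell from 24.9, 23.9, 42.3 and 36.7 in control to 13.8, 12.6, 20.2 and 19.9 in paused libraries. The groups did not overlap and the log2 change was -0.89 (SE 0.25, limma-trend adjusted p = 0.0148). The call was lost in DESeq2 and without control replicate 3 or 4, the libraries with the higher control values (highest adjusted p 0.0749). The strongest peak with Fosb as its nearest gene, 10084 bp before the start, had values of 247, 229, 288 and 229 in control and 293, 287, 323 and 261 in paused libraries, and was not called (log2 change 0.23).

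At Fos a peak of medium strength 36326 bp after the start rose (chromosome 12, 85510116 to 85510316), from 25.9, 32.3, 23.7 and 25.0 in control to 38.1, 47.3, 37.2 and 42.2 in paused libraries. All paused values lay above all controls, with a log2 change of 0.61 (SE 0.20, limma-trend adjusted p = 0.0339). It lost its call under TMM rescaling, loess correction, edgeR with TMM, DESeq2 and without 5 of the 8 libraries in turn, with adjusted p up to 0.267. All 18 peaks in the Fos window had Fos as their nearest gene, and 15 of the 16 tested were not called. Among them was the strongest, 18421 bp before the start, with values of 280.0, 207, 300, 263 in control and 305, 299.7, 338, 302 in paused libraries (log2 change 0.26, limma-trend adjusted p = 0.119).

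At Atf3 the strongest peak with that gene as the nearest, 41120 bp before the start (chromosome 1, 191224353 to 191224553), rose from 144, 139, 161 and 170 in control to 190, 174, 213 and 220 in paused libraries. The groups did not overlap. The log2 change of 0.37 (SE 0.12, limma-trend adjusted p = 0.0294) was 0.17 after loess correction (adjusted p = 0.363), and the call was lost under 8 of 17 alternatives. In the strongest 3 deciles, where this peak lies, 19.3% of all peaks were called higher.

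**Figure D4:**
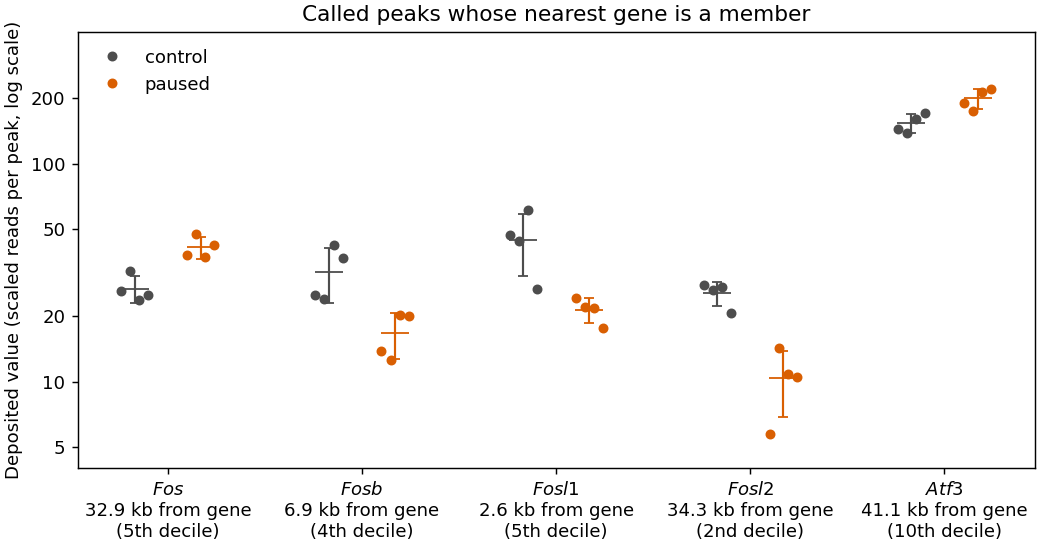
Deposited values (vertical axis, log scale) of the 5 called peaks whose nearest gene is a member, with their distance from the gene and their decile of strength. Points are the 4 control and 4 paused libraries, ticks the means and bars 1 SD; the paused values are higher at Fos and Atf3 and lower at Fosb, Fosl1 and Fosl2, with no overlap at any of the 5.

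Jun, Junb, Jund, Egr1 and Ier2 had no called peak of their own. The Jun window held only 3 peaks, against a median of 13 over all genes with a peak, and 12.6% of genes had 3 or fewer. Besides the start-site peak, one lay 24196 bp before the start with values of 65.7, 58.5, 69.4 and 76.4 in control and 75.0, 77.3, 109 and 79.7 in paused libraries. The other lay 26127 bp after it (95025995 to 95026195), with values of 53.6, 50.2, 74.5 and 45.6 in control and 35.8, 26.8, 59.0 and 34.0 in paused libraries. That peak had a log2 change of -0.55 (SE 0.20, limma-trend adjusted p = 0.0581), had an overlap that came from paused replicate 3, and was called under 7 of 16 alternatives, loess correction and TMM among them.

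The other 16 calls lay nearer to a neighbouring gene. Around Egr1, a peak nearest to the histone demethylase gene Kdm3b (chromosome 18, 34815386 to 34815586) rose from 82.6 ± 6.85 to 137 ± 21.3 (SD, n = 4; log2 change 0.71, limma-trend adjusted p = 0.000348) and was called under all 17 alternatives. On the other side of Egr1, 2 peaks nearest to Etf1, the translation release factor gene, fell by 0.86 and fell by 1.21 on the log2 scale. The smaller fall was called under all 16 alternatives that tested it. The larger rests on 4 to 43 reads per library. It lost its call after loess correction, in DESeq2 and without control replicate 3. Around Ier2, 2 peaks nearest to the calcium channel gene Cacna1a rose by 0.39 and 0.52 and a peak nearest to Nacc1 by 0.79. All 3 lost their call after loess correction and in DESeq2. The rise of 0.39 kept its call under only 7 of 17 alternatives, that of 0.52 under 15 of 17 and that of 0.79 under 9 of 16.

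Around Fosl1, peaks nearest to Tsga10ip and Mus81 rose by 0.46 and 0.33, while those nearest to Drap1 and AI837181 fell by 0.86 and 1.31. Around Fosb, peaks nearest to Vasp and Rtn2 rose by 0.42 and 0.47, and one nearest to Gm38499 fell by 1.13. A peak nearest to Hook2 fell by 1.23 in the Junb window, and one nearest to Pde4c by 0.91 in the Jund window. The falls at AI837181 and Hook2 were called under all 16 alternatives that tested them, while those at Pde4c and Drap1 lost their call under 6 and 9 of 16. The rise at Mus81 was lost under 10 of 17 alternatives, and those at Tsga10ip, Vasp and Rtn2 were lost after loess correction and in DESeq2. Those at Vasp and Rtn2 were also lost after TMM rescaling, and the one at Vasp with edgeR and TMM too.

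Summed over all peaks of its window, 4 of the 10 loci were called higher and none lower, in a test of such sums over 20225 genes in which 50.0% were called higher and 0.747% lower. The median locus rose by 0.15 on the log2 scale, and the members are to be read against that. Fos changed by 0.19 (SE 0.05, limma-trend adjusted p = 0.00471), from 1030 ± 48.3 to 1177 ± 35.8 (SD, n = 4), Ier2 by 0.14, Fosb by 0.11 and Atf3 by 0.22, which after subtraction of the median left 0.05, -0.00, -0.03 and 0.08. Neighbouring genes share peaks in these sums. Without paused replicate 3 or 4 there were 2 higher calls among the 10. After TMM rescaling none of the 10 was higher and Egr1 was lower, with 5.47% of all loci called higher and 4.64% lower. After loess correction the same held, with 5.22% and 4.59% of all loci.

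The Egr1 sums were 1305, 1354, 1350 and 1359 in control and 1309, 1297, 1420 and 1387 in paused libraries, with overlap in the deposited scaling and a log2 change of 0.01 (SE 0.05). Paused replicates 3 and 4 were the high ones. Its change after TMM rescaling was -0.13 (SE 0.04, limma-trend adjusted p = 0.0311) and after loess correction -0.13 (adjusted p = 0.0404). With only the peaks for which Egr1 is the nearest gene, the change was 0.06 (limma-trend adjusted p = 0.607).

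**Figure D5:**
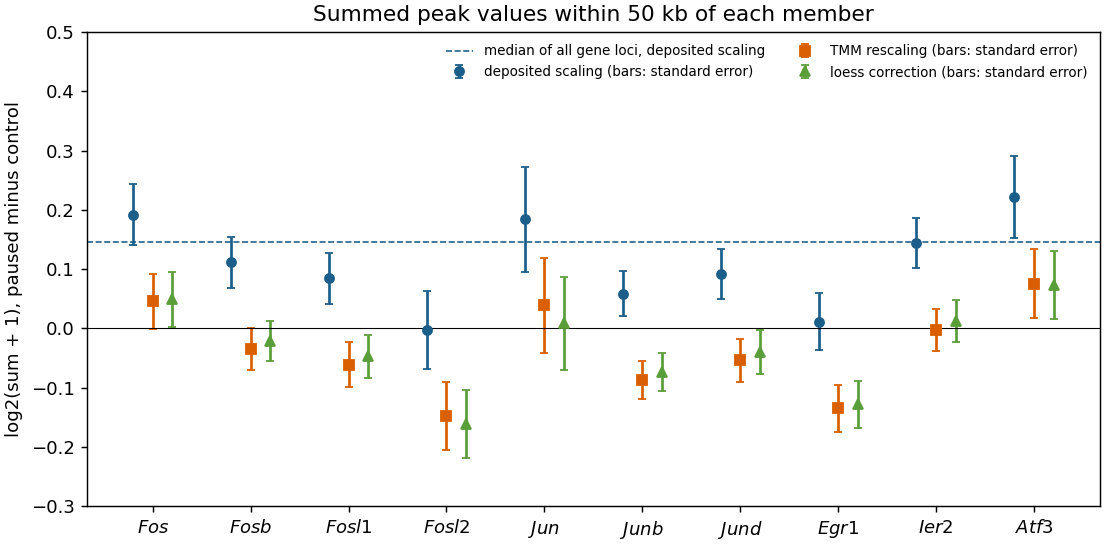
Log2 change in paused cells (vertical axis) of the summed peak values within 50 kb of each of the 10 genes, with the deposited scaling, after TMM rescaling and after loess correction; bars are standard errors and the dashed line is the median of all gene loci with the deposited scaling. All points move down together when the scaling changes, and Egr1 and Fosl2 lie lowest.

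Other genes of the pathway were taken from 3 lists, 47 genes in all, of which 46 had a peak for which they were the nearest gene. Of 345 tested peaks 33 (9.57%) were called higher and 13 (3.77%) lower, close to the 11.0% and 2.91% of all tested peaks. After loess correction there were 12 and 18, where 5.10% and 3.50% of all tested peaks were called. Upstream factors (kinases, Srf, its partners and Creb1) had 6 higher (5.88%) and 4 lower (3.92%) of 102, with a median change of 0.05. Other AP-1 family members and partners had 6 (9.84%) and 0 of 61, with a median of 0.06. Other immediate early genes had 21 (11.5%) and 9 (4.95%) of 182, with a median of 0.03. All 3 medians were below the 0.10 of all tested peaks.

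Among the upstream factors, the peak inside Srf, 245 bp from a gene end (chromosome 17, 46546983 to 46547183), fell from 92.0, 70.5, 110 and 82.3 in control to 61.1, 64.7, 51.2 and 59.8 in paused libraries. Srf binds the serum response element of many immediate early genes. All paused values were below all controls (log2 change -0.56, SE 0.15, limma-trend adjusted p = 0.0108), and the call was lost without control replicate 3 alone among the 17 alternatives (adjusted p = 0.0636). A peak inside Elk3, a ternary complex factor that binds beside Srf, fell by 0.56 (SE 0.15, limma-trend adjusted p = 0.0115). Of the 18 tested Elk3 peaks, however, 3 were called higher and 1 lower, where 11.0% and 2.91% of all tested peaks were. After loess correction, as after TMM rescaling, 0 of them were higher and 1 lower. A peak near Mrtfa, an actin-regulated cofactor of Srf, rose by 0.66 (SE 0.18, limma-trend adjusted p = 0.0117). The Mrtfa call was lost after loess correction, in DESeq2 and without control replicate 4 or paused replicate 1.

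In the AP-1 list, 4 of 18 peaks of Jdp2 were called higher, where 11.0% of all tested peaks were, and 2 after loess correction and 1 after TMM rescaling. Jdp2 encodes a Jun-dimerising repressor and lies 121382 bp beyond Fos on chromosome 12. Its peaks with the smallest adjusted p rose by 0.70 (85621152 to 85621352) and 0.48 (85638848 to 85639048), the first not in DESeq2 and the second not after loess correction, after TMM rescaling or in DESeq2. A weak peak near Maf rose by 1.28 (SE 0.40, limma-trend adjusted p = 0.029), with values of 6.22, 8.36, 1.69 and 14.7 in control, of which 1.69 is 1 read, and 17.3, 15.8, 20.2 and 14.1 in paused libraries, and lost its call under 8 of 16 alternatives.

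The smallest adjusted p-values of the 3 lists were among the immediate early genes. A peak 10652 bp from Dusp1, a phosphatase that switches MAP kinases off, rose from 28.4, 17.9, 25.4 and 19.1 in control to 51.9, 75.7, 45.0 and 50.4 in paused libraries (chromosome 17, 26494839 to 26495039; log2 change 1.26, SE 0.21, limma-trend adjusted p = 6.21e-05), and 4 of 6 tested Dusp1 peaks were called higher, where 11.0% of all tested peaks were. After loess correction, as after TMM rescaling, 3 of the 6 were higher and 1 lower. A peak 2659 bp from Nr4a1, an orphan nuclear receptor gene, rose from 90.1 ± 9.67 to 156 ± 17.8 (SD, n = 4; log2 change 0.78, limma-trend adjusted p = 6.42e-05). A peak 2256 bp from Plk3, encoding a polo-like kinase, fell from 59.1 ± 5.83 to 28.2 ± 5.87 (SD, n = 4; log2 change -1.06, limma-trend adjusted p = 0.000159). These 3 peaks were called under every alternative that tested them. Of the 3 tested Plk3 peaks, however, 1 was called higher and 1 lower, where 11.0% and 2.91% of all tested peaks were. The same Plk3 counts were found after loess correction and after TMM rescaling. Sgk1, a kinase gene downstream of mTOR complex 2, had 6 of 26 tested peaks called higher and none lower, where 11.0% and 2.91% of all tested peaks were. After loess correction 2 Sgk1 peaks were higher and 1 lower, and after TMM rescaling 1 and 1. Other genes of the list had more lower than higher calls: Ier5 (0 higher and 2 lower of 15), Klf6 (1 and 2 of 14), Npas4 (0 and 1 of 8) and Plk2 (0 and 1 of 9). After loess correction Ier5 and Klf6 had 0 higher and 3 lower each, Npas4 0 and 2, and Plk2 0 and 1.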

How the data were processed

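The 4 control and 4 paused ATAC-seq libraries were analysed from 1 deposited table. The submitters' processing notes name FastQC, Trim Galore, Bowtie2 2.4.1, MACS3 3.0.3, DiffBind 3.16.0 and the build mm10, with no role or order. Handling of the Tn5 offset is not given in the sources used here. For each library the authors deposited a signal per peak, and 100% of its values are whole multiples of 1 step per library (tolerance 0.0051), that is, reads per peak divided by a factor. The authors also deposited log2 mean concentrations and folds, and the p-values and FDR of their comparison, per the file headers, used only where their table is named. Per-sample columns left unused numbered 0.

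limma-trend (limma 3.58.1, R 4.3.3) was run on log2(value + 1) over all 127402 peaks with a mean of at least 10, without covariates, and adjusted by Benjamini-Hochberg over all of them. Such fold changes understate the change of weak peaks. Sums per gene window were tested likewise over 20225 genes. Alternatives were edgeR 4.0.16 and DESeq2 1.42.0 on the recovered reads (edgeR with TMM called 9082 peaks higher and 7058 lower), TMM rescaling, loess correction (span 0.3), a pseudocount of 0.1, no filter or a mean of at least 50, a block on the replicate number, other windows, and each library left out. The scripts were tested on simulated data. Spans came from 21887 protein-coding genes of GRCm38.p6, which is mm10. The nearest gene is that with the smallest distance to its span, then to its end.

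The members, lists and tests were chosen with earlier results of these data known. Named peaks were, for each member, the start-site peak, all called peaks and, among peaks with the member as nearest gene, the strongest and that with the smallest adjusted p, and for each pathway list the 3 smallest adjusted p. 1 further peak each of Fosl1 and Jun was named after their values were seen. The peak counts of Sgk1, Ier5, Klf6, Npas4 and Plk2 were also picked after the counts of their list were seen.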

Additional observations from a re-analysis of the deposited data

Results flagged for a closer look

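In 108 groups of 4 values (named peaks and gene loci, control and paused), 5 had 1 library far from the other 3, judged by Dixon's test of the gap relative to the range at its 95% level; chance flags about 1 in 20. At the strongest Fos peak paused replicate 3 was high, 338 against 300 to 305 in the other paused libraries. At the Fosl2 start-site peak paused replicate 2 was low, 158 against 204 to 205. At the peak nearest to Plb1 beyond Fosl2 paused replicate 1 was low, 16.2 against 18.6 to 18.9. At the peak nearest to Drap1 in the Fosl1 window paused replicate 1 was high, 20.8 against 9.46 to 10.9, and the call of that peak was lost under 9 of 16 alternatives. At the Mrtfa peak paused replicate 3 was low, 46.6 against 75.0 to 80.8.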

How the results depend on the processing

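Of the 21 called member peaks, 11 of 11 lower calls were kept after TMM rescaling and 9 after loess correction, while 7 of 10 higher calls were lost after TMM rescaling and 9 after loess correction. Member peaks called higher numbered 3 after TMM rescaling, 1 after loess correction, 4 with edgeR and TMM, 1 with DESeq2, 18 with the replicate block, 2 among peaks with the member as nearest gene, 0 of 47 within 10 kb and 24 of 342 within 100 kb, and 5 to 10 with 1 library left out. Of all tested peaks, 5.80% were called higher after TMM rescaling, 5.10% after loess correction and 7.13% with edgeR and TMM. The share was 3.06% with DESeq2, 13.6% with the replicate block and 7.05% to 9.96% with 1 library left out. Member peaks called lower numbered 0 with a mean of at least 50, 17 with edgeR and TMM, 7 with DESeq2, 3 among peaks with the member as nearest gene, 2 within 10 kb, 17 within 100 kb and 7 to 13 with 1 library left out. Of all tested peaks, 1.66% were called lower with a mean of at least 50 and 5.54% with edgeR and TMM. The share was 1.49% with DESeq2 and 1.82% to 3.04% with 1 library left out. Start-site peaks called higher numbered 1 with a mean of at least 50, 1 with edgeR and the deposited factors, 2 with the replicate block and 0 to 1 with 1 library left out, and 1 was called lower after loess correction. Of all tested peaks, 22.4% were called higher with a mean of at least 50 and 12.9% with edgeR and the deposited factors. After loess correction 155 of the 12120 start-site peaks of all protein-coding genes were called higher and 190 lower. Pathway peaks called higher numbered 10 after TMM rescaling, 12 after loess correction, 17 with edgeR and TMM, 6 with DESeq2 and 17 to 34 with 1 library left out. Those called lower numbered 6 with a mean of at least 50, 21 after TMM rescaling, 29 with edgeR and TMM, 5 with DESeq2 and 6 to 14 with 1 library left out. The shares of all tested peaks given for the member peaks apply here too, with 4.27% lower after TMM rescaling. Gene loci called higher numbered 0 after TMM rescaling, 0 after loess correction, 7 with the replicate block, 1 within 10 kb, 9 within 100 kb, 2 over peaks with the member as nearest gene and 2 to 5 with 1 library left out, and 1 locus was called lower after TMM rescaling and 1 after loess correction. Of all loci, 5.47% were called higher after TMM rescaling, 5.22% after loess correction and 60.4% with the replicate block. The share was 31.4% within 10 kb, 61.9% within 100 kb and 29.6% over peaks with the gene as nearest. With 1 library left out it was 35.8% to 53.8%. Lower calls made up 4.64% of all loci after TMM rescaling and 4.59% after loess correction. The cause of these differences was not tested, except that a mean of at least 50 leaves out weak peaks and other windows hold other peaks.

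Some values changed sign, those of the called loci Fosb and Ier2 among them. Start-site or strongest peaks did so after loess correction at Egr1 (-0.077), Fosl1 (-0.0063), Fosl2 (-0.036) and Junb (-0.082), and after TMM rescaling at Junb (-0.00578). The strongest peak with Ier2 as its nearest gene was at -0.050 after TMM rescaling, -0.14 after loess correction, -0.041 with edgeR and TMM, -0.043 with DESeq2 and -0.036 to 0.14 with 1 library left out. The Ier2 start-site peak was at -0.053, -0.098, -0.022 and -0.036 under those settings and -0.016 to 0.16 with 1 library left out. Locus sums were, after TMM rescaling and after loess correction, -0.035 and -0.021 at Fosb, -0.062 and -0.047 at Fosl1, -0.087 and -0.074 at Junb, -0.054 and -0.040 at Jund and -0.13 and -0.13 at Egr1, and after TMM rescaling -0.0024 at Ier2. Within 10 kb they were -0.047 at Fosb, 0.14 at Fosl2 and -0.16 at Ier2, and over peaks with the member as nearest gene -0.12 at Fosl1 and 0.12 at Fosl2. With 1 library left out Fosl2 ran from -0.0506 to 0.0283 and Egr1 from -0.012 to 0.031. The replicate numbers gave correlations of 0.08, 0.04, 0.13 and 0.04 between same-numbered samples, not all above 0.1, so that the samples were taken to share only a number. Replicates 1, 3 and 4 of each group correlated best with their own number and replicate 2 of each with number 1, which is a hint from the data and not from the design. With 18 to 91 reads at the median peak, changes at weak peaks are poorly resolved.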

Other observations

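Over all promoters, the shares with a motif were set beside the calls of their start-site peaks, as a description without a test. TGANTCA lay in 12.9% of the 124 promoters whose start-site peak was called lower, in 4.97% of the 1691 called higher and in 5.32% of the 13785 not called. The variant TGACATCA of the Jun promoter lay in 8.87%, 1.89% and 1.89% of them, and the Egr site GCGNGGGCG, found in the Fosb and Fosl2 promoters, in 3.23%, 10.2% and 9.79%. The lower shares rest on 16, 11 and 4 promoters, and promoters that share a peak are counted each. Lower calls were a larger share of weak than of strong peaks over all tested peaks, and the part of peak strength in these shares was not tested.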
